A study of Rattus norvegicus with 10 samples.

Results

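The genes described here are 34 homeostatic and transport genes of astrocytes, chosen by name, measured by RNA sequencing in 10 male TgF344-AD rats, 1 left hippocampus each. Of the 34, 32 have a row in the deposited tables and all 32 passed the filter on low counts, out of 17168 genes in the tables and 12161 tested; Sox9 and Hepacam were not analysed here. All 10 rats were transgenic and 11 months old at collection. The 5 untreated rats ate plain rodent chow. The 5 RG2833 rats ate chow with 750 mg of RG2833 per kg of chow from 5 months of age for 6 months. RG2833 blocks HDAC1 and HDAC3, enzymes that remove acetyl groups from histones. The design text names another drug, ibudilast, in its sentence on timing; the sample labels name RG2833 and were followed. TgF344-AD rats are a model of Alzheimer's disease that carries mutant human APP and presenilin transgenes, as background knowledge; the labels do not name the transgenes or their promoter. Each library is 1 rat, no wild-type rats were analysed here, and the single comparison asks how the drug affects expression in transgenic males.

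Astrocytes tile the brain and hold the fluid around neurons steady. They clear glutamate and GABA after release, turn glutamate into glutamine, take up potassium, move water through channels at their endfeet on blood vessels, and share small molecules with each other through gap junctions. In the hippocampus this clearing of transmitter shapes how long a synaptic signal lasts. The genes below encode those transporters, channels and enzymes, with receptors, secreted proteins and a few proteins used as general astrocyte markers. All levels are in CPM, a gene's counts per 1000000 counts of a library, with library sizes adjusted by edgeR's TMM factors. Levels of different genes are not compared, since CPM is not per gene length.

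Total expected counts ran from 15118203 to 18533520 per library. The expected count of a member in a library ran from 94 (Bmpr1b) to 83874 (Sparcl1), so every member was well above the detection limit in every rat. Hippocampal neurons were represented in each library: the summed level of the dentate granule list was 231 to 404 CPM, that of the CA1 list 539 to 1130 CPM and that of the CA3 list 722 to 1972 CPM. Untreated replicate 2 and RG2833 replicate 1 stood apart in choroid plexus RNA (summed list of 8031 and 9372 CPM, the highest of their groups). Untreated replicate 3 stood apart within its group in the astrocyte genes themselves, as described next, and results are given with and without it where it matters. Adjusted p-values are from edgeR's quasi-likelihood test over all 12161 genes, and n is 5 rats in each group throughout.

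The astrocyte genes went up and down together from rat to rat. For each gene the log2 CPM in a library was set against that gene's mean over the 10 libraries, and the 32 deviations were averaged. This mean was -0.28, -0.36, 0.25, -0.18 and -0.23 in the untreated rats, replicates 1 to 5. For the RG2833 rats, in the same order, it was -0.16, 0.06, 0.07, 0.41 and 0.42. RG2833 replicates 4 and 5 and untreated replicate 3 were the 3 high libraries, and the groups overlapped through untreated replicate 3 alone, since RG2833 replicate 1, the lowest of its group, was still above the other 4 untreated rats. All 32 genes were above their 10-library mean in RG2833 replicates 4 and 5, and 30 of 32 were above it in untreated replicate 3. Untreated replicate 1 had 0 of the 32 above it, and in untreated replicate 2, where 23 of the 32 genes had their lowest value, 1 was. The lowest and highest library differed by 0.78 on the log2 scale, or 1.71-fold. The group means were -0.16 ± 0.24 and 0.16 ± 0.25 (SD), a difference of 0.32 that was of similar size to the spread within each group; group membership accounted for 35.0% of the variance of this mean over the 10 libraries.

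**Figure D1:**
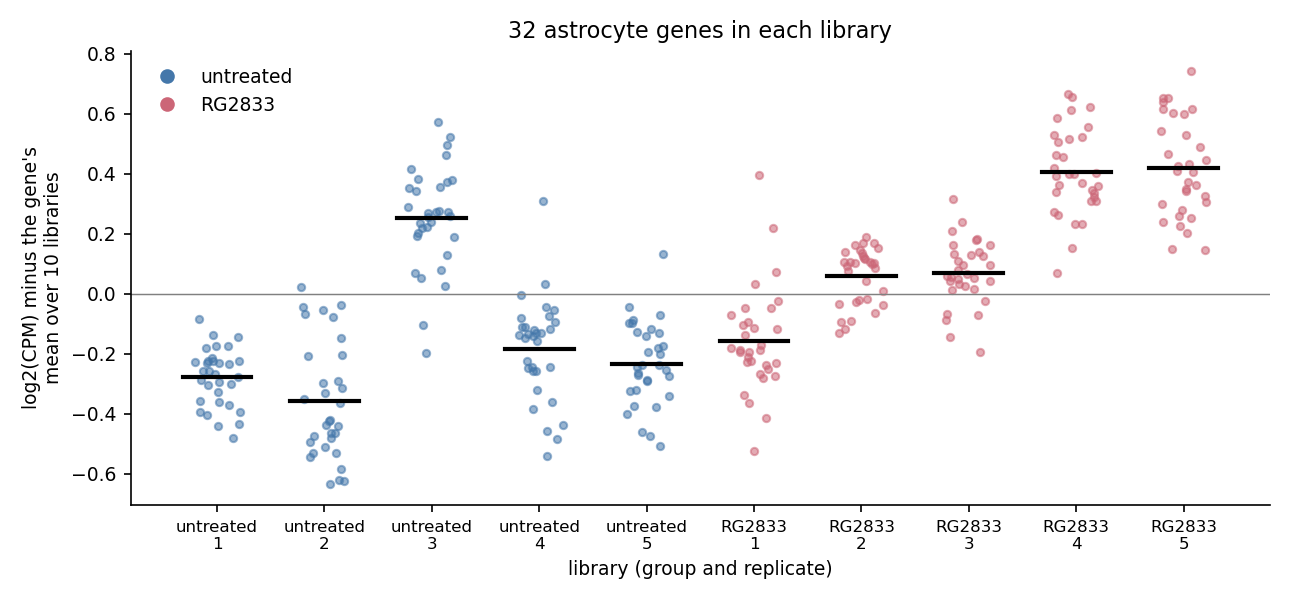
Each point is 1 of 32 astrocyte genes in 1 library, as log2 CPM minus that gene's mean over the 10 libraries (vertical axis), for 5 untreated (blue) and 5 RG2833 (red) libraries; black bars are the mean over the 32 genes. The bars run from -0.36 in untreated replicate 2 to 0.42 in RG2833 replicate 5, and untreated replicate 3 lies at 0.25, above 3 of the 5 RG2833 libraries.

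All 32 genes had a higher mean in RG2833 than in untreated rats, and none passed the test. The log2 fold changes ran from 0.12 (Chrdl1) to 0.60 (Gjb6), with a median of 0.31, against a median of -0.01 over all genes tested, of which 46.5% were higher in RG2833. Adjusted over all genes, 0 of the 32 had an edgeR p under 0.05; the smallest adjusted p was 0.841, shared by 23 of them, and the largest was 0.946. The share called at that threshold over all 12161 genes was 0%. At an unadjusted p under 0.05, 13 of the 32 were higher and 0 lower, where 2.94% of all genes tested were higher and 2.71% lower (5.66% in either direction). DESeq2 gave 0 members under an adjusted p of 0.05 and 16 under an unadjusted p of 0.05, higher, against 3.38% of all genes; limma on the authors' CPM gave 0 and 14, against 3.2%. Since the members follow each other so closely, these 13 calls are not 13 separate observations. In 12 of the 32 genes all 5 RG2833 rats were above the untreated mean, in 18 genes 4 were, and in 2 genes (Bmpr1b and Chrdl1) 2 were. RG2833 replicates 4 and 5 exceeded every untreated rat in 28 and 25 of the 32 genes, while RG2833 replicates 1, 2 and 3 did so in 2, 2 and 5.

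The size of the difference turned on single rats. The groups overlapped in all 32 genes; over all genes tested, 0.419% were higher in RG2833 without overlap. Without untreated replicate 3, 28 of the 32 had an unadjusted p under 0.05, against 9.24% of all genes tested, and 0 passed after adjustment (smallest edgeR adjusted p 0.28, between 0.28 and 1.00 over the fits that leave out a library, median log2 fold change 0.42). In that set 6 genes (Atp1b2, Fgfr3, Ndrg2, Mt3, Prdx6 and Cldn10) did not overlap between groups, against 2.69% of all genes. Without RG2833 replicate 4 or RG2833 replicate 5, 3 and 2 of the 32 had an unadjusted p under 0.05, against 1.35% and 1.49% of all genes, and the median log2 fold change was 0.25 and 0.26. Leaving out untreated replicate 1, 2, 4 or 5 gave 4, 4, 5 and 7 genes, where the shares of all genes were 2.29%, 2.12%, 2.33% and 2.1%. Leaving out RG2833 replicate 1, 2 or 3 gave 21, 11 and 11 genes, where the shares were 4.22%, 2.8% and 2.58%. Without both libraries rich in choroid plexus RNA 12 genes were so called, against 2.6% of all genes. The direction held for all 32 genes in every fit that left out a library. The TMM scaling factor moved with the level of these genes. It ran from 0.957 in RG2833 replicate 5 to 1.05 in untreated replicate 2 and had r = -0.89 and rho = -0.92 with the mean deviation over the 10 libraries (r = -0.80 without the 2 libraries farthest from the median). The share of counts from the ribosomal RNA entries Rn45s and Rn28s was lowest in untreated replicate 1 at 4.07% (95% Wilson interval 4.06 to 4.08) and highest in untreated replicate 3 at 11.4% (11.40 to 11.43), with r = 0.76 and rho = 0.82 (0.75 without those 2). The intervals cover counting error only. The part of either in the result was not tested. The median log2 fold change was 0.31 with median-of-ratios factors and 0.30 with upper-quartile factors (13 and 9 genes with an unadjusted p under 0.05, against 2.84% and 2.13% of all genes). With no filter on low counts 15 genes were so called, against 2.79%, and with the replicate number as a block 12, against 1.92%. The correlations across libraries here and below are descriptions, over the same 10 libraries, and carry no p.

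**Figure D2:**
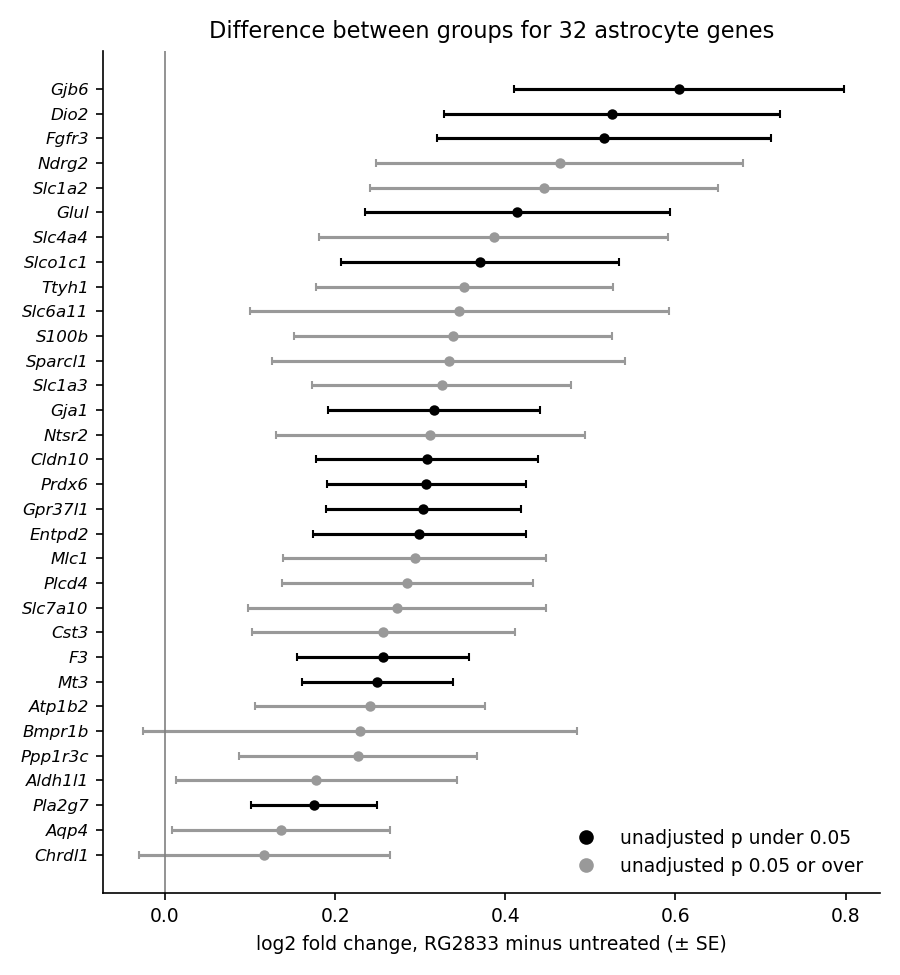
Log2 fold change of RG2833 minus untreated (horizontal axis) with its standard error for each of the 32 astrocyte genes, 5 rats per group; black points have an unadjusted edgeR p under 0.05, grey points do not. All 32 points lie right of 0, from 0.12 for Chrdl1 to 0.60 for Gjb6, and none passed after adjustment.

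The transporters and enzymes that handle glutamate and GABA varied by about 1.8-fold to 2.4-fold between rats. Values by library are given in the order of replicates 1 to 5. Slc1a2, the main glutamate transporter of the forebrain (GLT-1), read 412, 333, 625, 489 and 414 CPM untreated and 402, 555, 598, 746 and 793 CPM with RG2833. RG2833 replicates 4 and 5 were above every untreated rat, RG2833 replicate 1 was below the untreated mean, and the groups overlapped. Its log2 fold change was 0.45 (SE 0.20) (unadjusted p = 0.0528, edgeR adjusted p = 0.841; two-sided exact permutation p = 0.111). Slc1a3, the second astrocytic glutamate transporter (GLAST), read 932, 832, 1315, 1097 and 937 CPM untreated and 964, 1214, 1245, 1485 and 1498 CPM with RG2833. The order of the rats was nearly that of Slc1a2, and the log2 fold change was 0.33 (SE 0.15). Glul, glutamine synthetase, read 1330.0, 1303, 2008, 1604 and 1454 CPM untreated and 1533, 1705, 1882, 2395 and 2743 CPM with RG2833. Its log2 fold change of 0.41 (SE 0.18) had an unadjusted p of 0.042, and 4 of 5 RG2833 rats were above the untreated mean.

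Slc6a11, the astrocytic GABA transporter GAT-3, read 55.5, 39.7, 91.2, 51.7 and 44.1 CPM untreated and 50.5, 60.4, 61.8, 96.6 and 89.3 CPM with RG2833. Untreated replicate 3 was above every untreated rat and above 4 of the 5 RG2833 rats, and the log2 fold change was 0.35 (SE 0.25). Slc7a10, a transporter of small neutral amino acids such as D-serine and glycine, read 35.1, 42.1, 59.8, 29.8 and 34.3 CPM untreated and 44.3, 48.6, 41.4, 57.3 and 51.2 CPM with RG2833. No RG2833 rat was above the highest untreated rat, and the log2 fold change was 0.27 (SE 0.17).

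The connexins that form astrocyte gap junctions were higher by different amounts. Gja1 (connexin 43) read 571, 492, 759.6, 609.8 and 579.6 CPM untreated and 607, 738, 746, 834 and 824 CPM with RG2833. All 5 RG2833 rats were above the untreated mean and 2 above the untreated maximum, with a log2 fold change of 0.32 (SE 0.12) and an unadjusted p of 0.0285. Gjb6 (connexin 30) had the largest log2 fold change of the 32 genes and the smallest unadjusted p. It read 39.9, 53.6, 58.4, 39.7 and 39.1 CPM untreated and 48.6, 59.9, 61.0, 88.4 and 93.1 CPM with RG2833. In 4 of the 5 RG2833 rats it was above every untreated rat, and only RG2833 replicate 1 fell inside the untreated range. The log2 fold change was 0.60 (SE 0.19) (unadjusted p = 0.0103, edgeR adjusted p = 0.841; exact permutation p = 0.0397); by its p it ranked 118 of the 12161 genes tested.

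Among the water, ion and volume genes, Aqp4 moved least between groups. Aqp4, the water channel of the endfeet, read 812, 700.4, 1055, 914 and 817 CPM untreated and 739, 942, 978, 1079 and 989 CPM with RG2833. The 2 groups covered nearly the same range, and the log2 fold change was 0.14 (SE 0.13). Mlc1, a membrane protein that with Hepacam governs volume regulation in astrocytes, read 479, 440.3, 737, 593 and 566 CPM untreated and 539.7, 669, 645, 781 and 816 CPM with RG2833. Its log2 fold change was 0.29 (SE 0.15), with 2 RG2833 rats above the untreated maximum. Atp1b2, a beta subunit of the sodium-potassium pump, read 781, 826, 1104, 773 and 767 CPM untreated and 845, 899, 943, 1159.7 and 1178 CPM with RG2833. In the untreated group 4 rats lay close together and replicate 3 far above them; the log2 fold change was 0.24 (SE 0.14). Slc4a4, a sodium-bicarbonate cotransporter, and Ttyh1, a tweety-family membrane protein, had log2 fold changes of 0.39 (SE 0.20) and 0.35 (SE 0.18). Their ranges were 68.1 to 110.4 CPM untreated and 68.5 to 140.2 CPM with RG2833 for Slc4a4, and 663 to 1224 CPM untreated and 819 to 1325 CPM with RG2833 for Ttyh1. None of these 5 genes had an unadjusted p under 0.05.

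The 7 receptor and signalling genes had log2 fold changes from 0.23 (Bmpr1b) to 0.52 (Fgfr3), and 4 are among the 13 with an unadjusted p under 0.05 (2.94% of all genes were so called and higher), which is no result apart from those 13. Fgfr3, a receptor for fibroblast growth factors, read 99.8, 79.5, 153, 88.1 and 90.4 CPM untreated and 106, 133, 135, 175 and 181 CPM with RG2833. All 5 RG2833 rats were above the untreated mean; only untreated replicate 3 made the groups overlap. The log2 fold change was 0.52 (SE 0.20) (unadjusted p = 0.0241). Gpr37l1, an orphan receptor of astrocytes, read 304, 282, 388, 299 and 334 CPM untreated and 332, 365, 379, 456 and 450.0 CPM with RG2833, with a log2 fold change of 0.30 (SE 0.11) (unadjusted p = 0.0232). Entpd2, an ectoenzyme that cleaves extracellular ATP, read 43.0, 38.8, 58.8, 38.8 and 47.5 CPM untreated and 46.1, 53.7, 58.9, 63.0 and 57.4 CPM with RG2833. Its log2 fold change was 0.30 (SE 0.13) (unadjusted p = 0.0365). F3, tissue factor, which starts blood coagulation, read 34.2, 38.8, 41.7, 38.9 and 34.5 CPM untreated and 43.0, 38.3, 42.1, 45.5 and 55.8 CPM with RG2833. In 4 of the 5 RG2833 rats it was above every untreated rat, and RG2833 replicate 2 was inside the untreated range; its log2 fold change was 0.26 (SE 0.10) (unadjusted p = 0.0285).

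The other 3 of this group did not reach that level. Ntsr2, a neurotensin receptor, ranged over 129 to 239 CPM untreated and 159 to 266 CPM with RG2833, with a log2 fold change of 0.31 (SE 0.18). Bmpr1b, a receptor for bone morphogenetic proteins, ranged over 6.04 to 12.7 CPM untreated and 6.07 to 13.5 CPM with RG2833, with a log2 fold change of 0.23 (SE 0.26). It was high in untreated replicate 3 and RG2833 replicates 4 and 5 and low in the other 7 rats. Plcd4, a phospholipase C, ranged over 21.0 to 32.7 CPM untreated and 23.7 to 38.6 CPM with RG2833, with a log2 fold change of 0.28 (SE 0.15).

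The 3 general astrocyte markers measured are not among the 13 genes with an unadjusted p under 0.05. Aldh1l1, a folate enzyme and a standard astrocyte marker, read 30.6, 28.4, 45.3, 32.2 and 29.5 CPM untreated and 27.5, 35.0, 35.1, 48.0 and 42.2 CPM with RG2833. RG2833 replicate 1 had the lowest value of all 10 rats, and the log2 fold change was 0.18 (SE 0.17). S100b, a calcium-binding protein, read 1696, 1503, 2838, 1989 and 1915 CPM untreated and 1857, 2465, 2269.8, 2899 and 3078 CPM with RG2833. Untreated replicate 3 was exceeded by RG2833 replicates 4 and 5 alone, and the log2 fold change was 0.34 (SE 0.19). Ndrg2, a gene of the N-myc downstream-regulated family, read 1638, 1408, 2891, 1811 and 1729 CPM untreated and 1854, 2438, 2290.5, 3112 and 3375 CPM with RG2833. Its log2 fold change was 0.46 (SE 0.22), with 2 RG2833 rats above the untreated maximum.

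**Figure D3:**
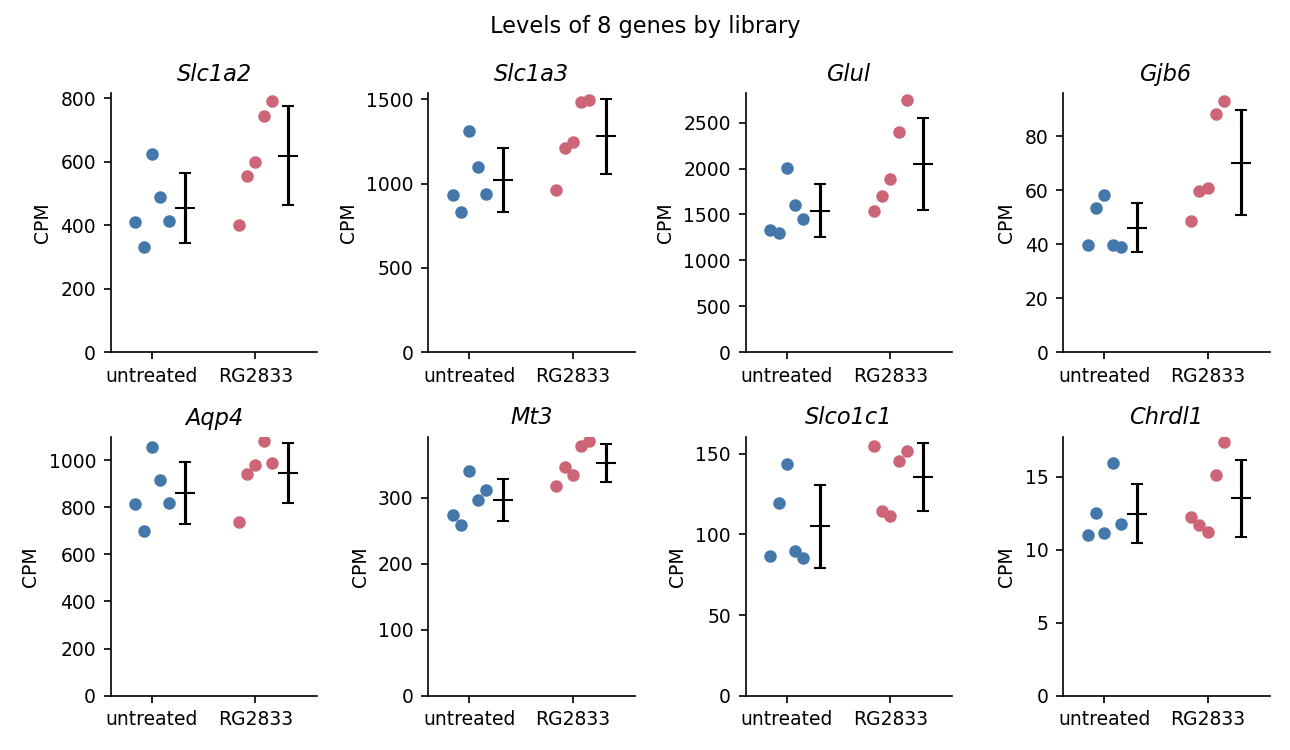
CPM of 8 astrocyte genes in 5 untreated (blue) and 5 RG2833 (red) libraries, replicates 1 to 5 from left to right within a group; black marks are the mean ± SD and every vertical axis starts at 0. Slc1a2, Slc1a3 and Glul share 1 profile over the libraries, Gjb6 has 4 of 5 RG2833 values above all untreated ones, and Chrdl1 and Slco1c1 follow other profiles.

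The metal and redox genes Mt3 and Prdx6 are among those 13. Mt3, a metallothionein that binds zinc and copper, read 274, 259, 340.0, 297 and 312 CPM untreated and 317, 347, 334, 378 and 386 CPM with RG2833. All 5 RG2833 rats were above the untreated mean and 3 above the untreated maximum, with means of 297 ± 31.7 and 352 ± 29.1 CPM (SD). The log2 fold change was 0.25 (SE 0.09) (unadjusted p = 0.0174, edgeR adjusted p = 0.841; exact permutation p = 0.0317). Prdx6, a peroxiredoxin that reduces lipid peroxides, read 151, 144, 202, 148 and 156 CPM untreated and 165, 192, 184, 229 and 222 CPM with RG2833. Its log2 fold change was 0.31 (SE 0.12) (unadjusted p = 0.0243), and untreated replicate 3 alone reached into the RG2833 range. Cldn10, a claudin, read 38.3, 33.7, 54.6, 41.9 and 43.7 CPM untreated and 45.2, 51.5, 47.6, 62.6 and 55.7 CPM with RG2833, a log2 fold change of 0.31 (SE 0.13) (unadjusted p = 0.0387).

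Of the thyroid hormone pair, Dio2, the deiodinase that makes the active hormone in astrocytes, read 8.66, 8.50, 12.2, 11.8 and 9.07 CPM untreated and 9.87, 10.8, 14.7, 18.2 and 18.6 CPM with RG2833. In 3 of the 5 RG2833 rats it was above every untreated rat, and the log2 fold change was 0.52 (SE 0.20) (unadjusted p = 0.0228). Slco1c1, a thyroxine transporter that brain endothelium and choroid plexus also make, read 86.8, 119, 144, 89.9 and 85.2 CPM untreated and 155, 114, 112, 145 and 152 CPM with RG2833. RG2833 replicate 1, rich in choroid plexus RNA, had the highest value of the 10; the log2 fold change was 0.37 (SE 0.16) (unadjusted p = 0.0458). Ppp1r3c, which targets a phosphatase to glycogen, ranged over 77.4 to 128 CPM untreated and 88.8 to 133 CPM with RG2833, with a log2 fold change of 0.23 (SE 0.14).

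The 4 secreted proteins followed each other least of the role groups, with a median pairwise correlation of 0.26 over the 10 libraries. Sparcl1, a matrix protein that promotes synapse formation, ranged over 2521 to 5007 CPM untreated and 3099 to 5044 CPM with RG2833. Untreated replicate 3 and RG2833 replicates 4 and 5 were the highest, and the log2 fold change was 0.33 (SE 0.21). Cst3, cystatin C, a protease inhibitor, read 2057, 2577, 3426, 2162 and 2291 CPM untreated and 3146, 2669, 2447, 3241 and 3444 CPM with RG2833. RG2833 replicate 1 was here above RG2833 replicates 2 and 3, unlike in most members, and the log2 fold change was 0.26 (SE 0.15). Pla2g7, which breaks down platelet-activating factor, read 93.9, 92.0, 98.7, 99.2 and 116 CPM untreated and 102, 113, 120.1, 111 and 118 CPM with RG2833. It varied 1.30-fold over the 10 rats, the least of the members, and all 5 RG2833 rats were above the untreated mean; the log2 fold change was 0.17 (SE 0.07) (unadjusted p = 0.0379). Chrdl1, a secreted antagonist of bone morphogenetic proteins, read 11.0, 12.5, 11.2, 15.9 and 11.7 CPM untreated and 12.2, 11.7, 11.2, 15.1 and 17.4 CPM with RG2833. Untreated replicate 3, high in nearly all other members, was among the lowest here, and the log2 fold change was 0.12 (SE 0.15).

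The members' common variation was much closer than that of genes in general. Over the 496 pairs of members the median Pearson correlation of log2 CPM was 0.87, from 0.04 (Entpd2 with Chrdl1) to 1.00 (Slc1a2 with Slc1a3, 0.995), and 0 pairs were negative. Of the pairs, 75% reached 0.7, against 7.15% of all pairs of tested genes, whose median was 0.0017. A single axis held 81.8% of the members' standardized variance, against 39.8% for all genes. With each group's mean subtracted the median was 0.84. The points share libraries, and so depth, scaling and tissue makeup. Between rats the members varied somewhat more than genes in general, with a median biological coefficient of variation of 18.7% against 14.4%.

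Most members followed the rest closely, and a few did not. Set against the mean of the other members (each standardized), 23 of 32 had r of at least 0.9, and the median was 0.94. The 3 highest were Ndrg2 (r = 0.99 and rho = 0.99), Prdx6 (r = 0.98 and rho = 0.94) and S100b (r = 0.98 and rho = 0.95). The 3 lowest were Chrdl1 (r = 0.41 and rho = 0.25), Pla2g7 (r = 0.55 and rho = 0.58) and Slco1c1 (r = 0.64 and rho = 0.59). Without the 2 libraries farthest from the median, RG2833 replicates 4 and 5, the median over members was 0.89, Ndrg2 stood at 0.99 and Pla2g7 at 0.40, and Chrdl1 turned to -0.35. The positive value of Chrdl1 thus rests on those 2 rats. The steepness also differed. For each log2 unit of the other members' mean, Slc6a11 and Ndrg2 moved 1.52, Fgfr3 1.48 and Slc1a2 1.42, while Aqp4 moved 0.64, Mt3 0.60, Chrdl1 0.34 and Pla2g7 0.26.

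Taken relative to the mean of the other members in the same library, no gene separated the groups. Gjb6 was higher in RG2833 by 0.27 on the log2 scale beyond the others (SD 0.26 untreated, 0.16 RG2833), and Fgfr3 by 0.21 (SD 0.16 and 0.08). Aqp4 was lower by a relative -0.19 (SD 0.10 and 0.14) and Aldh1l1 by -0.15 (SD 0.05 and 0.10). For all 32 the relative values of the groups overlapped. This measure was added after the data were seen. Set against the mean of all 32 in the same library, F3, Cst3 and Slco1c1 were the only 3 members that were above the other 8 libraries in both libraries rich in choroid plexus RNA. Slco1c1 stood there at 0.38 (untreated replicate 2) and 0.55 (RG2833 replicate 1), against -0.23 to 0.04 elsewhere. Cst3 stood at 0.29 and 0.38, against -0.21 to 0.09. Slc1a2, Slc1a3, Ttyh1 and Bmpr1b were below the other 8 in both; Slc1a2 stood at -0.28 and -0.21, against -0.09 to 0.20. Without both libraries the median pairwise correlation was 0.90.

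Pairs of genes with a known partnership differed in how tightly they were tied. Slc1a2 and Slc1a3, the glutamate transporters, had r = 0.995 (rho 0.96; 0.993 with group means subtracted), the closest pair of all. Slc1a2 and Glul, which take up glutamate and convert it, had r = 0.96 (rho 0.96). Aqp4 and Mlc1, both of the endfoot membrane, had r = 0.91 (rho 0.94). Atp1b2 and Mlc1 had r = 0.85 (rho 0.79) and Slc6a11 and Slc7a10 r = 0.76 (rho 0.70). The connexins Gja1 and Gjb6 had r = 0.79 (rho 0.77), which was 0.94 without the 2 libraries farthest from the median of Gja1 and 0.61 with group means subtracted. Slco1c1 and Dio2, which import and activate thyroid hormone, had r = 0.54 (rho 0.44) and 0.30 without 2 libraries. The pair of Mlc1 with Hepacam was not analysed here.

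**Figure D4:**
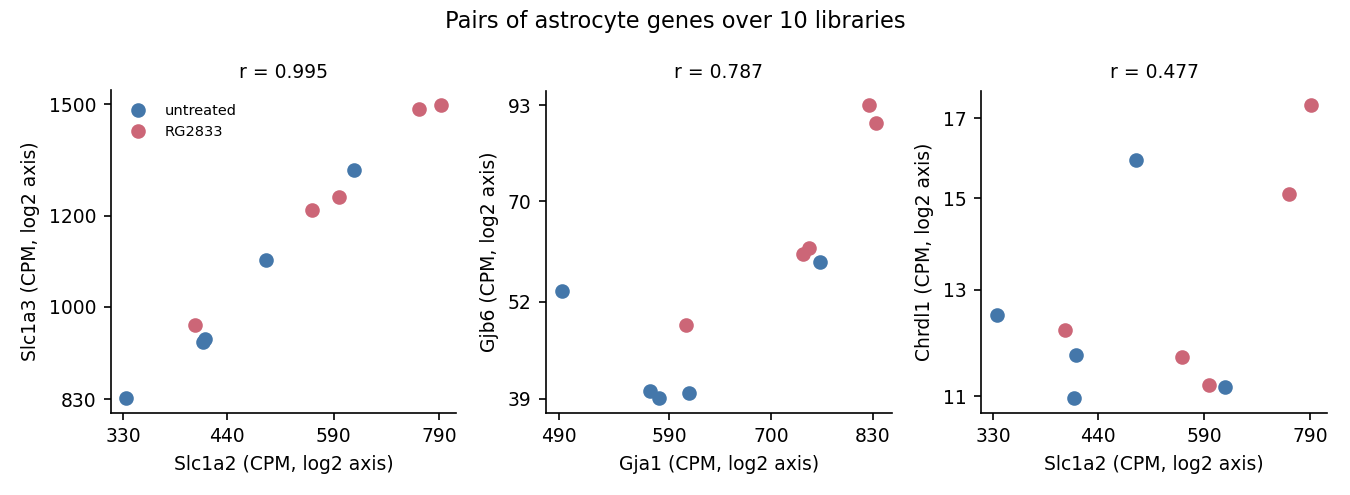
CPM of 3 pairs of genes in the 10 libraries on log2 axes (blue untreated, red RG2833); r is Pearson's correlation of log2 CPM. Slc1a2 and Slc1a3 fall on 1 line (r = 0.995), the connexins Gja1 and Gjb6 scatter more (r = 0.787), and Chrdl1 follows Slc1a2 least of the 3 (r = 0.477).

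The promoters of the closest pair, of S100b and Mlc1, and of the member that followed least are shown to set members that move together beside one that does not. Each line is the 250 bases before a transcription start, the one listed first for the gene in RefSeq's GRCr8 table (Slc1a2 has 2 there and Slc1a3 has 3), read 5′ to 3′ on the gene's strand. Capitals mark TTGGCA, the core that nuclear factor I, a family of factors of the astrocyte lineage, is known to bind, searched on both strands (TGCCAA when reversed, which can overlap a CCAAT box). Slc1a2 lies at chr3:109459859-109460108 (plus strand), Slc1a3 at chr2:59557809-59558058 (minus strand), S100b at chr20:12381082-12381331 (minus strand), Mlc1 at chr7:121946699-121946948 (minus strand) and Chrdl1 at chrX:111789662-111789911 (minus strand).
Slc1a2: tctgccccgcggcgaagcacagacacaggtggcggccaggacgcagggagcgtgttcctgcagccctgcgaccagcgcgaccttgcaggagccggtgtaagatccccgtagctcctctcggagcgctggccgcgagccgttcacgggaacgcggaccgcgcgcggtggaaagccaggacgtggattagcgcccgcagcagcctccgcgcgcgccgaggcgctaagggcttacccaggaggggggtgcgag
Slc1a3: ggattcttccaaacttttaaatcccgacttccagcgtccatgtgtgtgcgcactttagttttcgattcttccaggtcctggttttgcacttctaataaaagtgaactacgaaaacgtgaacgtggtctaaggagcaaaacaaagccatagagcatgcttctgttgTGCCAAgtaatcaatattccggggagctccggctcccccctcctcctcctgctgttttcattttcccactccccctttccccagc
S100b: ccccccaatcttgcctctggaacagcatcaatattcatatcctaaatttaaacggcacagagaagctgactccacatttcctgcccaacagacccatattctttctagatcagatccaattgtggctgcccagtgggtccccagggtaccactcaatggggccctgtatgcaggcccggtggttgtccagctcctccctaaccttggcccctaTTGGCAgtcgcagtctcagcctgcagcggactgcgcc
Mlc1: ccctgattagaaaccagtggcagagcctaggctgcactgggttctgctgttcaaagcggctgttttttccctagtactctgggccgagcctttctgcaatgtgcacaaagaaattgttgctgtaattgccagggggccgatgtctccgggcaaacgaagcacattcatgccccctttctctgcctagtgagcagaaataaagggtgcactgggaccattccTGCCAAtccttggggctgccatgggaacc
Chrdl1: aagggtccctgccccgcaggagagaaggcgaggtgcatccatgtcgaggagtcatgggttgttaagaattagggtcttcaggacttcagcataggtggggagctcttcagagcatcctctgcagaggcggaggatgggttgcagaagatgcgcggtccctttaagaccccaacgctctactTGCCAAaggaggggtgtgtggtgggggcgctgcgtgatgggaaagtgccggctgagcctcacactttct

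The motif began 85 bases before the start in Slc1a3, 37 in S100b, 29 in Mlc1 and 69 in Chrdl1, and its letters did not occur in the window of Slc1a2. Slc1a2 and Slc1a3 thus differed in it, and Chrdl1 had it. In windows of 300 bases (250 before to 50 after a start), TTGGCA occurred in 27.0% of the 37 promoters of the 29 of 34 listed genes found in the table (8 of the 29, Hepacam among them) and in 14.0% of all 33469 promoters. The members' windows had a median GC content of 57.0%, against 51.7%. Other motifs, fixed as letters and searched on both strands, were TTCNNNGAA (STAT; 5.41% of the members' promoters and 8.87% of all), ACAAAG (SOX; 18.9% and 18.8%), ACAATG (SOX; 0% and 13.2%), TATAAA (10.8% and 14.2%), CCAAT (45.9% and 37.5%) and the cAMP element TGACGTCA (0% and 1.83%). The full palindromic site of nuclear factor I was in 0 of the 37 promoters and in 0.0418% of all. These are matches of letters, with no data on binding here.

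Other astrocyte genes, from a list written with earlier results known and holding none of the 34, followed the members in their mean, but not all did so singly. Of 35 entries 33 were tested. The mean was above the untreated one for 30 and below it for 3, with a median log2 fold change of 0.28; 46.5% of all genes tested were higher. At an unadjusted p under 0.05, 7 were higher and 0 lower, against 2.94% and 2.71% of all genes, and 0 passed after adjustment. Their mean level had r = 0.99 and rho = 0.96 with that of the members over the 10 libraries (0.99 without the 2 libraries farthest from the median). Singly, 17 of the 33 had r of at least 0.9 with the members and 5 were below 0, with a median of 0.90. Named after their values were seen, the 6 that followed least were Nfib (r = -0.53), Mgst1 (-0.43), Ezr (-0.13), Lcat (-0.03), Fabp7 (-0.01) and Clu (0.18). The 7 with an unadjusted p under 0.05 were Htra1, Tril, Slc15a2, Lfng, Acot11, Nfia and Tst. Htra1, a secreted serine protease, read 175, 152, 186, 170.4 and 172 CPM untreated and 208, 224, 227, 264 and 303 CPM with RG2833. It was the one of the 7 whose groups did not overlap, with a log2 fold change of 0.52 (SE 0.10) (unadjusted p = 0.000441, edgeR adjusted p = 0.841). Nfia, of the nuclear factor I family, had a log2 fold change of 0.23 (SE 0.09). Gfap, the astrocyte intermediate filament, followed in part: it ranged from 2094 to 2952 CPM with r = 0.56 and a log2 fold change of 0.19 (SE 0.10). Of 14 genes known from reactive astrocytes, Gfap among them, 12 were tested. The RG2833 mean was higher for 2 and lower for 10, where 46.5% of all genes were higher, and the median was -0.18. In this list Vim alone had an unadjusted p under 0.05, lower, where 2.71% of all genes were so called. That list's mean was highest in untreated replicate 2, at 0.62 above the 10-library mean on the log2 scale, and had r = -0.24 and rho = 0.01 with the members (-0.33 without 2). In that library the mean of the choroid plexus list stood 4.32 and that of the dura and meninges list 2.86 above theirs, the latter followed by 1.06 in RG2833 replicate 1; their part in the reactive list's values was not tested.

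Other genes of the members' pathways did not share 1 profile. As background for the counts below, 46.5% of all genes tested were higher in RG2833. At an unadjusted p under 0.05, 2.94% of all genes were higher and 2.71% lower. In the glutamate, GABA and glutamine list all 17 entries were tested. The RG2833 mean was higher for 5 and lower for 12, 0 had an unadjusted p under 0.05, and the median log2 fold change was -0.07. Singled out after their values were seen, Abat and Aldh5a1, which break down GABA, and Glud1, glutamate dehydrogenase, had r = 0.99, 0.97 and 0.95 with the members, while the aminotransferases Got2 and Got1 had r = -0.92 and -0.87. Slc17a7, the vesicular glutamate transporter of neurons, had r = -0.72. In the potassium, water and endfoot list 12 of 13 were tested, 9 higher and 3 lower, with a median of 0.11. The one with an unadjusted p under 0.05 was Kcnj10, the potassium channel Kir4.1, which read 51.3, 45.2, 60.0, 60.0 and 57.4 CPM untreated and 56.3, 66.8, 70.0, 87.4 and 96.5 CPM with RG2833. In 4 of 5 RG2833 rats it was above every untreated rat, with a log2 fold change of 0.46 (SE 0.14), an unadjusted p of 0.00884 and an edgeR adjusted p of 0.841. In the thyroid hormone list 8 of 8 were tested, 4 higher and 4 lower, 0 with an unadjusted p under 0.05.

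Genes outside the list were ranked by how closely they followed the members. Over 9740 named genes with a mean of at least 5 CPM, 5.29% had r of at least 0.9 with the members' mean and 1.22% had r of -0.9 or below. Among the 10 closest, with r from 0.98 to 0.99, were Acsbg1, Spire1, Aldoc, Abat, Cbs, Myo10, Ephx2, Ahcyl1 and Gstm1. Acsbg1, a fatty acyl-CoA synthetase, read 300.2, 249, 465, 309 and 298 CPM untreated and 308, 390.0, 392, 523 and 544 CPM with RG2833, with r = 0.99. The 5 with the most opposite profile were Vcp, Creld1, Usp10, Rpusd2 and Drg1, from -0.98 to -0.96. Vcp, an ATPase of protein quality control, read 388, 386, 330.2, 375 and 375 CPM untreated and 359.5, 357, 347, 327 and 317 CPM with RG2833; it was lowest in the 3 libraries in which the astrocyte genes were highest.

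Markers of other cell types moved with the astrocyte genes between rats, some up and some down. In bulk tissue, a different share of a cell type and a different amount of RNA per cell cannot be told apart. Of the microglia list 12 of 14 were tested, with a summed level of 639 to 1188 CPM untreated and 687 to 967 CPM with RG2833; its mean log2 level had r = 0.83 and rho = 0.83 with the members (0.82 without the 2 farthest libraries). For endothelium (9 of 11 tested; 327 to 626 and 382 to 708 CPM) r was 0.80 and rho 0.70 (0.61 without 2). Oligodendrocyte precursors (6 of 7 tested; 417 to 605 and 433 to 664 CPM) had r = 0.90 and rho = 0.81 (0.79 without 2). In the opposite direction, the mean of CA3 pyramidal cells had r = -0.79 and rho = -0.76 (-0.70 without 2). Of 8 entries 7 were tested, and the summed level was 722 to 1972 and 860 to 1889 CPM. The mean of dentate granule cells had r = -0.71 and rho = -0.75 (-0.76 without 2). Of 9 entries 6 were tested, with a summed level of 231 to 404 and 243 to 349 CPM and Tdo2 at a median of 0. Singly, 6 of the 7 CA3 genes and 4 of the 6 dentate genes had r below 0, and the highest had 0.29 and 0.58. The general neuron list (14 of 14 tested; 9042 to 11944 and 9827 to 11755 CPM) had r = -0.62 and rho = -0.55 (-0.42 without 2); singly, 12 of its 14 genes had r below 0, and Map2 (0.94) and Camk2a (0.63) went the other way. Myelinating oligodendrocytes (11 of 12 tested; 7587 to 14882 and 9076 to 16634 CPM) had r = -0.23 and rho = -0.31 (-0.62 without 2). Untreated replicate 3 and RG2833 replicates 4 and 5 were thus high in the mean of the astrocyte, microglia and endothelial lists and low in that of the CA3 and neuron lists. CA1 pyramidal cells (7 of 7 tested; 539 to 1130 and 758 to 1032 CPM) had r = 0.28 (0.02 without 2), pericytes and smooth muscle (9 of 9 tested; 128 to 243 and 138 to 196 CPM) 0.40 (0.15 without 2), choroid plexus and ependyma (12 of 12 tested; 40.9 to 8031 and 16.5 to 9372 CPM) -0.47 (-0.36 without 2), and dura and meninges (8 of 8 tested; 70.0 to 1252 and 60.8 to 784 CPM) -0.39 (-0.42 without 2). Apart from Tdo2, no marker of these lists in the tables had a median of 0. In these 11 lists 0 genes passed after adjustment. At an unadjusted p under 0.05 there were Mpped1 (CA1), higher, and Plk5 (dentate), Tagln (smooth muscle), Ccdc153 (ependyma) and Slc22a6 (meninges), lower. Over all genes tested, 2.94% were so called and higher and 2.71% lower. These few calls in the 11 lists were not read as a result about them. The part of the makeup of the tissue in the astrocyte genes' difference between groups was not tested.

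**Figure D5:**
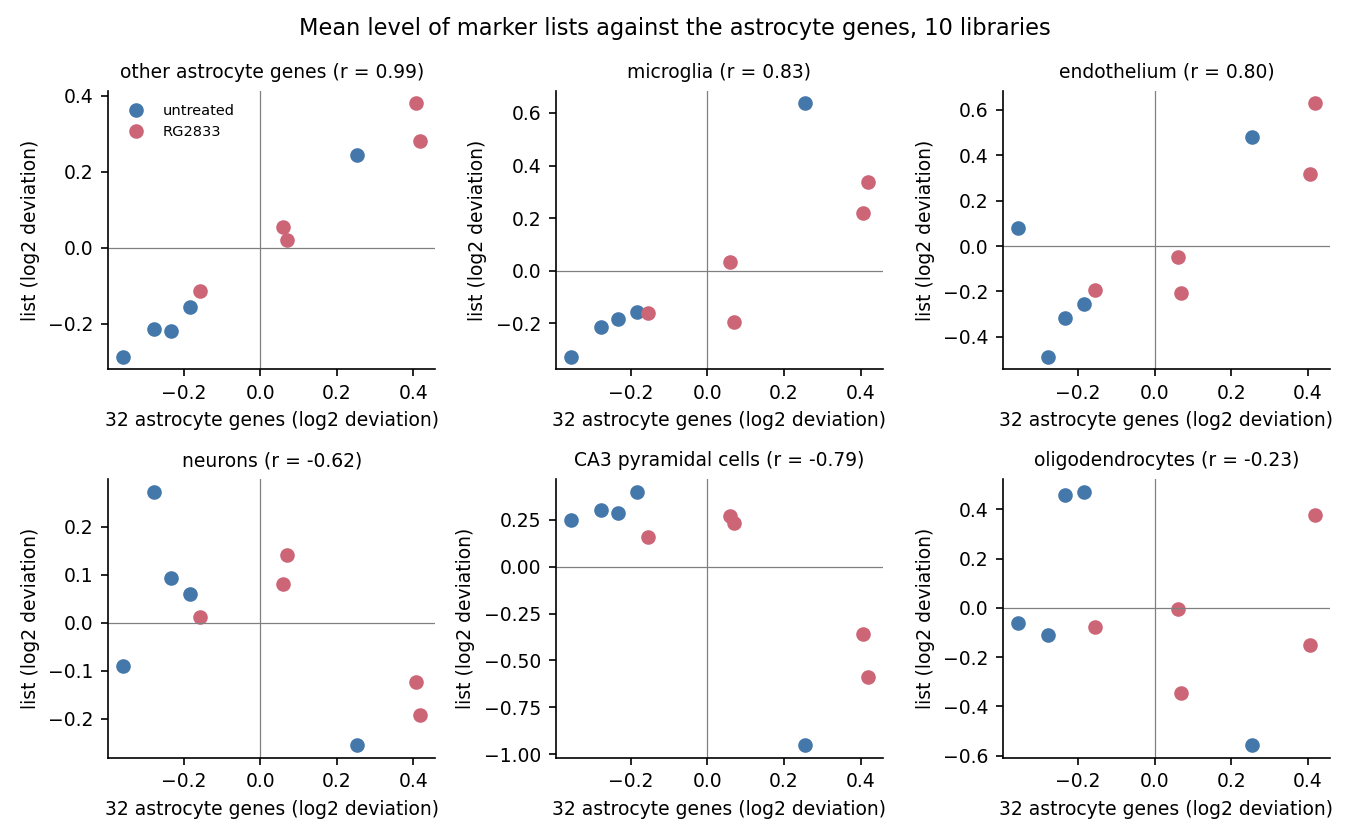
Mean log2 level of 6 marker lists (vertical axes, deviation from the 10-library mean) against that of the 32 astrocyte genes (horizontal axes) in 5 untreated (blue) and 5 RG2833 (red) libraries; r is Pearson's correlation. The mean of the other astrocyte genes lies on a line with the members (r = 0.99), microglia and endothelium rise with them (0.83 and 0.80), and the means of the CA3 and neuron lists go the opposite way (-0.79 and -0.62).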

How the data were processed

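The authors deposited a table of RSEM expected counts per gene, estimates that need not be whole (11.6% were not), and a table of TMM-normalized CPM, a signal per gene relative to a scaled library size, per the file names. Reads were processed with bcl2fastq 2.17, Bowtie2 2.1.0, RSEM 1.2.15 and edgeR on the rn6 build, per the submitters' processing notes; the library kit was strand-specific and for mRNA, per the labels' protocols, and annotation, strand setting and filters are not given in the sources used here. In the deposited CPM signal, 100% of values were whole reads within 0.05 of a read, and all equalled the rounded expected counts. Run on those reads, the same fit called 0 genes.

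Expected counts were rounded and fitted with edgeR 4.0.16 (R 4.3.3): filterByExpr (minimum count 10, minimum total 15; 12161 genes kept), TMM, robust quasi-likelihood F test, Benjamini-Hochberg adjustment over all genes, threshold 0.05. CPM computed here differed from the authors' by at most 2.86% for the members. Log2 CPM used a prior count of 2. Exact permutation tests are two-sided over the 252 regroupings of 5 and 5 libraries (smallest possible p 0.00794). Alternatives were DESeq2 1.42.0, other scalings, no filter, limma 3.58.1 on log2(authors' CPM + 1), the replicate number as a block, and leaving out libraries; the fit on recovered reads and the overlap without untreated replicate 3 were chosen after seeing the data. No 2 libraries were alike within sampling noise (chi-square per gene at least 7.38 over 45 pairs).

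The members, lists and tests were chosen with earlier results of these data known. Values in every library are given for 9 members named in any case, of which Sox9 was not analysed, for those with an unadjusted p under 0.05, for the 3 with the largest and smallest log2 fold change, for the 3 with the highest and lowest correlation with the others, and for fixed pairs; Cst3 was added after its values were seen. Non-members were named by the 10 highest and 5 lowest correlations or an unadjusted p under 0.05 in a list; some genes that this rule or a list would name are not reported here. Other non-members (Gfap, Nfib, Mgst1, Ezr, Lcat, Fabp7, Clu, Aldh5a1, Glud1, Got1, Got2, Slc17a7, Map2 and Camk2a) were named after their values were seen. So were Prox1 and C1ql2 of the dentate list. Promoter sequences are from RefSeq, GRCr8; their coordinates are not those of rn6.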

Additional observations from a re-analysis of the deposited data

Results flagged for a closer look

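For the 32 genes and their mean deviation, the highest and lowest rat of each group were checked for distance from the rest, as the gap to the next value over the full range of the 5. Above 0.71 the rat counts as standing apart, which happens by chance in about 1 in 20 groups. That gives 3.3 of 66 sets; 7 were found, and the sets are not independent. All 7 were the same library, untreated replicate 3, at the high end. The gap was 0.826 of the range for Atp1b2 (1104 CPM against 767 to 826), 0.794 for Prdx6 (202 against 144 to 156) and 0.774 for Aldh1l1 (45.3 against 28.4 to 32.2). For Sparcl1 it was 0.747 (5007 CPM against 2521 to 3149), for Ndrg2 0.728 (2891 against 1408 to 1811) and for Fgfr3 0.723 (153 against 79.5 to 99.8). For the mean deviation of the 32 genes it was 0.717 (0.25 against -0.36 to -0.18). The same library had the highest share of ribosomal RNA and the highest microglia level of the 10. It also had the lowest mean log2 levels of the CA3 and dentate lists, at -0.95 and -0.83 from their 10-library means. The part of each of these in the values above was not tested.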

How the results depend on the processing

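All 32 genes kept a positive log2 fold change and 0 passed after adjustment in each alternative, including DESeq2, where 7 of all genes tested had an adjusted p under 0.05 against 0 with edgeR. Scaling moved the median of all genes by less than 0.1. The number of members with an unadjusted p under 0.05 ran from 2 to 28 when single libraries were left out, while the share of all genes so called and higher ran from 1.35% to 9.24%. It was 9 (2.13% of all genes) with upper-quartile scaling and 12 (2.6%) without both libraries rich in choroid plexus RNA. It was 28 without untreated replicate 3, 21 without RG2833 replicate 1, 7 without untreated replicate 5, 5 without untreated replicate 4, 4 without untreated replicate 1 or 2, and 3 and 2 without RG2833 replicates 4 and 5; fewer samples enter each such fit. The median log2 fold change ran from 0.25 to 0.42 over those fits, and the median pairwise correlation from 0.84 to 0.89. With the replicate block 12 members had an unadjusted p under 0.05, against 1.92% of all genes, 0 passed, and the median pairwise correlation was 0.87. The numbers are not known to pair rats: same-numbered libraries had correlations from -0.487 to -0.0339, and 0 of 5 correlated best with their own number. With 5 rats a group, differences of this size could not be told from the spread between rats; the lowest count of a member in a library was 94.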
